A study of Mus musculus with 6 samples.

Results

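The p53 pathway and the Cdk inhibitors were examined in mouse blastocysts through 10 genes: the transcription factor gene Trp53, its negative regulator Mdm2, the Cdk inhibitor genes Cdkn1a, Cdkn1b and Cdkn2c, and the p53 targets Phlda3, Btg2, Ccng1, Trp53inp1 and Gadd45a. Members were found as probesets annotated with exactly 1 gene symbol, and 8 of the 10 were found, among 22180 genes with such a probeset. No such probeset carried the symbol Trp53, so Trp53 was not analysed here. The probeset naming Gadd45a also named a second gene, so it was left out. Each of the 8 genes had 1 probeset. Of these, 6 passed the filter on dim signal, which asked for a value at or above the array's median on at least 2 of the 6 arrays, and were tested among 14020 genes. Mdm2 and Cdkn1b did not pass it and are given as levels.

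Transcripts were measured on Mouse Gene ST arrays in 3 groups of 2 arrays, from RNA of pools of 10 blastocysts; the labels leave unsaid whether each array had a pool of its own. DOX-7g embryos were in vitro dormant blastocysts of day 7, with let-7 induced by DOX. Dor-7g blastocysts were dormant in vivo on day 7, and D4-act-7g blastocysts were activated on day 4. All 3 groups came from let7g-transgenic mice, so no group lacked the transgene, and the labels do not give its promoter or say whether Dor-7g or D4-act-7g embryos received DOX. By the labels, day, culture in vitro, dormancy and the induction of let-7 come together in DOX-7g when it is set against D4-act-7g, and day and dormancy in Dor-7g, so these cannot be told apart. Between DOX-7g and Dor-7g, the kind of dormancy, culture in vitro and the induction of let-7 come together and cannot be told apart either. Replicate arrays are not described as separate mice, so the p-values measure only the spread between arrays, which may be technical.

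p53 is a transcription factor that Mdm2, a ubiquitin ligase and itself a p53 target, keeps at a low level in unstressed cells. When p53 accumulates it activates genes that slow the cell cycle, among them Cdkn1a, whose protein p21 binds and inhibits cyclin-Cdk complexes. Cdkn1b encodes p27, a relative of p21, and Cdkn2c encodes p18, an inhibitor of the cyclin D-dependent kinases. Diapause is a reversible arrest of the blastocyst before implantation, in which cell division is known to slow or stop.

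The microRNA whose induction defines DOX-7g is shown, and with it the p53 half-sites found in the promoters of members whose levels are given here, with the paired site of Cdkn1a. In the mature let-7g sequence (RefSeq, GRCm38.p6, chr9:106178846-106178867, plus strand, within the gene Wdr82) the capitals mark the seed, bases 2 to 8, which all 8 mature let-7 5p sequences with a let-7 name in that table share.
let-7g-5p: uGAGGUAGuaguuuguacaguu
Promoter windows ran from 250 bases before to 50 after each annotated start (RefSeq, GRCm38.p6), and were searched for the 10-base p53 half-site consensus, which reads the same on both strands. Capitals mark a matching half-site, or in Cdkn1a a pair of adjoining half-sites, a 20-base match with 1 mismatch outside the core of each site.
Cdkn1a, chr17:29090913-29090962, plus strand: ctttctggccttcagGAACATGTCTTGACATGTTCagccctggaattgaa
Ccng1, chr11:40755447-40755486, minus strand: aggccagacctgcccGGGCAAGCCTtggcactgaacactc
Mdm2, chr10:117710920-117710959, minus strand: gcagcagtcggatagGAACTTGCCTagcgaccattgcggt
The Cdkn1a pair lay 51 to 32 bases before the upstream of its 2 annotated starts, and the window of the other start held no half-site. A further half-site of Cdkn1a lay 73 to 64 bases before the same start, and the windows of Trp53 and Gadd45a, which have no level here, held 1 each. In all, 5 of the members' 11 windows (9 genes) held a half-site. A half-site, whether or not in a pair, was present in 8.36% of all 32851 windows, and a pair with at most 1 mismatch in 0.0548% of them. The windows of Cdkn1b, Cdkn2c, Phlda3 and Btg2 held no half-site. A match describes these letters only and is no measured binding.

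Array quality and embryo markers were checked before the genes were compared. Dor-7g replicate 1 stood apart: its Pearson correlation with the other arrays across probesets was 0.899 to 0.919, and its median was 4.87 log2 units, against 4.62 to 4.67 on the other 5 arrays. The SD of a gene within a group had a median of 0.14 log2 units in DOX-7g, 0.26 in Dor-7g and 0.12 in D4-act-7g. Of 7 trophectoderm markers, 6 to 7 were at or above the array median on each array; Cdx2, Gata3, Eomes, Krt8 and Krt18 were so on all 6, Tfap2c on 5 and Elf5 on 4. Of 5 inner cell mass markers, 4 were so on every array, among them Pou5f1 and Nanog, and Sox2 lay below it on all 6. The Mirlet7g hairpin probeset was below the array median on every array, at 3.46 and 3.20 in DOX-7g, 3.50 and 3.59 in Dor-7g, and 3.31 and 3.56 in D4-act-7g, so it gave no check of the induction.

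Cdkn1a separated the 3 groups without overlap. Its log2 level was 9.86 and 9.78 in DOX-7g, 7.43 and 7.99 in Dor-7g, and 8.77 and 8.62 in D4-act-7g. Both in vitro dormant arrays thus lay above, and both in vivo dormant arrays below, the activated embryos of day 4. Between the dormant states Cdkn1a was higher in DOX-7g than in Dor-7g by 2.11 ± 0.24 log2 units (SE), a 4.31-fold difference that passed (limma, adjusted p = 0.0177). Against D4-act-7g the separate changes did not pass: 1.12 ± 0.24 in DOX-7g (limma, adjusted p = 0.141; 95% interval 0.54 to 1.71) and -0.98 ± 0.24 in Dor-7g (limma, adjusted p = 0.154; 95% interval -1.56 to -0.40). The call between dormant states was lost in a fit of the 4 DOX-7g and Dor-7g arrays alone (limma, adjusted p = 0.071). Leaving out either D4-act-7g array gives that same fit for this comparison. The call was also lost without either DOX-7g array, which leaves 1 array in that group. Changes were 1.83 to 2.39 whichever array was left out. With the fit restricted to the 4 arrays of DOX-7g and D4-act-7g, the same change of 1.12 passed (limma, adjusted p = 0.0409). It also passed under array weights (limma, adjusted p = 0.0252). Leaving out either Dor-7g array repeats the 4-array fit, since the 1 array left in Dor-7g adds nothing to the spread. Without Dor-7g replicate 2 the change in Dor-7g, then on replicate 1 alone, was -1.26.

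**Figure D1:**
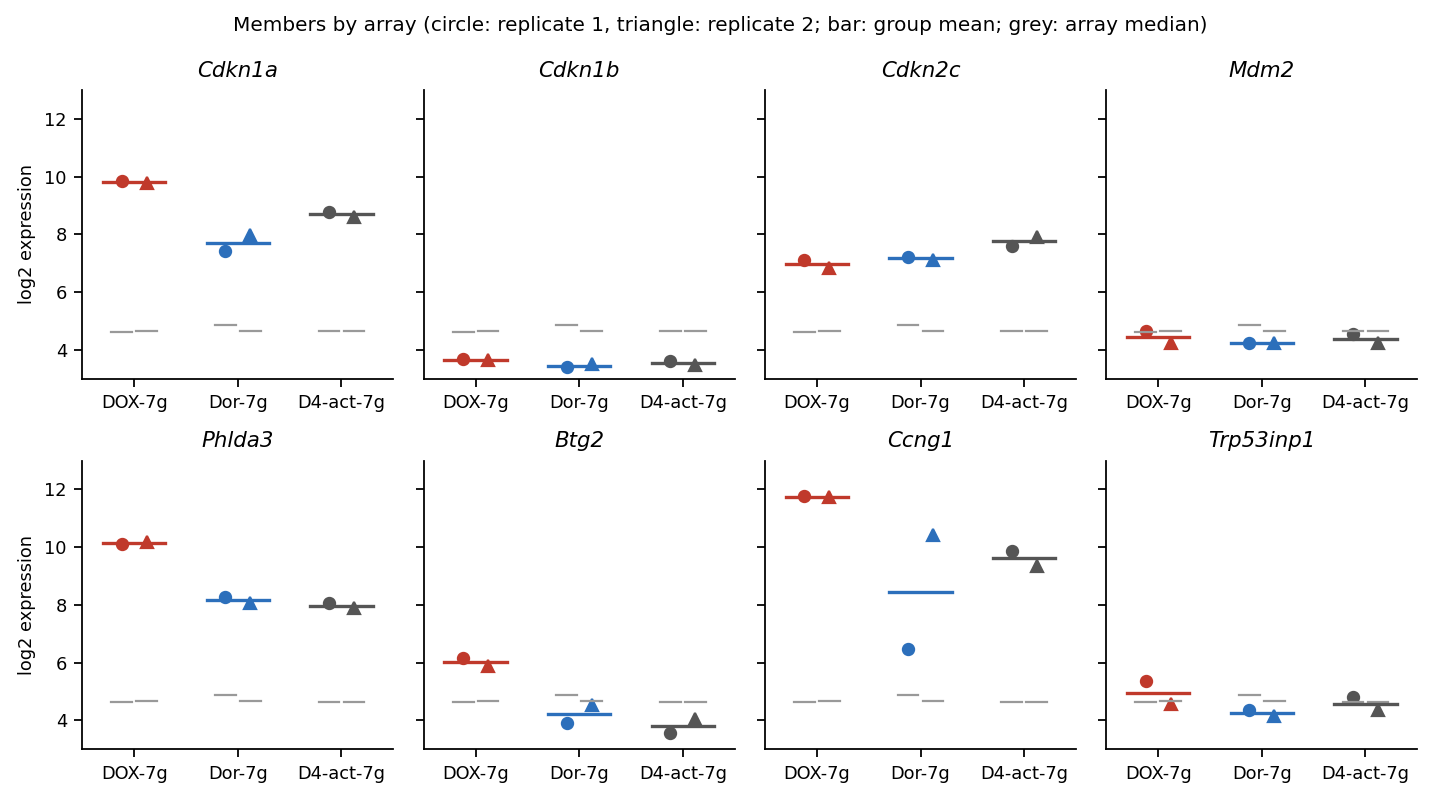
Log2 expression of the 8 measured members on each of the 6 arrays (y axis), by group (x axis); circles are replicate 1, triangles replicate 2, coloured bars group means and short grey bars each array's median. Cdkn1a, Phlda3, Btg2 and Ccng1 are highest on both DOX-7g arrays, Cdkn1b lies under the array median throughout, and the 2 Dor-7g arrays stand at 6.46 and 10.41 for Ccng1.

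Neither Cdkn2c nor Cdkn1b had a change that passed. Cdkn2c was at 7.10 and 6.85 in DOX-7g, 7.22 and 7.12 in Dor-7g, and 7.59 and 7.93 in D4-act-7g. Both dormant groups lay below the day 4 arrays without overlap, but neither change passed: -0.78 ± 0.20 in DOX-7g (limma, adjusted p = 0.220) and -0.59 ± 0.20 in Dor-7g (limma, adjusted p = 0.279). DOX-7g minus Dor-7g was -0.19 ± 0.20 (95% interval -0.70 to 0.31; limma, adjusted p = 0.710). Cdkn1b lay below the array median on all 6 arrays, at 3.67 and 3.64 in DOX-7g, 3.41 and 3.50 in Dor-7g, and 3.63 and 3.48 in D4-act-7g. With no filter, its changes were -0.10 in Dor-7g and 0.10 in DOX-7g against D4-act-7g, and 0.20 in DOX-7g against Dor-7g. None of these passed (limma, adjusted p = 0.821, 0.989 and 0.659). At so dim a signal a fall or a small difference in p27 transcript could be missed.

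Mdm2 was also near the floor of what the array measured well. It stood at 4.65 and 4.24 in DOX-7g, 4.24 and 4.24 in Dor-7g, and 4.54 and 4.24 in D4-act-7g, and reached the array median only on DOX-7g replicate 1. D4-act-7g overlapped with both other groups, DOX-7g and Dor-7g all but touched, and no change in Mdm2 was detected at this signal.

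Phlda3, which encodes a p53-induced repressor of Akt signalling, had the smallest p of the members for DOX-7g against both other groups. Its level was 10.12 and 10.19 in DOX-7g, 8.26 and 8.07 in Dor-7g, and 8.06 and 7.89 in D4-act-7g. Both DOX-7g arrays stood well clear of all 4 others, while Dor-7g and D4-act-7g lay next to each other. Phlda3 rose by 2.18 ± 0.18 in DOX-7g against D4-act-7g (4.53-fold; limma, adjusted p = 0.00752) and was higher by 1.99 ± 0.18 in DOX-7g than in Dor-7g (3.98-fold; limma, adjusted p = 0.00886). Dor-7g minus D4-act-7g was 0.19 ± 0.18 (limma, adjusted p = 0.661), with a 95% interval of -0.25 to 0.63. Leaving out DOX-7g replicate 1 or 2 or D4-act-7g replicate 1 or 2 ended the first call (adjusted p = 0.0671, 0.0827, 0.0765 and 0.101), and leaving out either DOX-7g array ended the second (adjusted p = 0.0718 and 0.0821). The first change stayed between 2.09 and 2.27 and the second between 1.90 and 2.09 whichever array was left out.

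Btg2, an antiproliferative gene whose protein recruits the mRNA deadenylation machinery, was at 6.16 and 5.88 in DOX-7g, 3.90 and 4.54 in Dor-7g, and 3.56 and 4.05 in D4-act-7g. The values of Dor-7g and D4-act-7g overlapped and lay under the array median, so Btg2 entered the test only through the DOX-7g arrays. Its difference of 2.22 ± 0.30 in DOX-7g against D4-act-7g passed (limma, adjusted p = 0.040), also with no filter (0.0435), but with D4-act-7g so dim its size is uncertain. Against Dor-7g it was higher by 1.80 ± 0.30 without passing (limma, adjusted p = 0.0752; 95% interval 1.07 to 2.53), and Dor-7g minus D4-act-7g was 0.42 ± 0.30 (limma, adjusted p = 0.566). The call against D4-act-7g was lost without DOX-7g replicate 1 or 2 or D4-act-7g replicate 1 or 2 (adjusted p = 0.223, 0.182, 0.254 and 0.157) and under a second quantile normalization (0.081) or median centring (0.0808). The difference from Dor-7g was 2.12 without Dor-7g replicate 2, with replicate 1 alone in that group.

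Ccng1 encodes cyclin G1, a p53 target that brings a phosphatase to Mdm2. It stood at 11.76 and 11.73 in DOX-7g, 6.46 and 10.41 in Dor-7g, and 9.88 and 9.36 in D4-act-7g. Both DOX-7g arrays lay above all others, but the 2 Dor-7g arrays lay on either side of the D4-act-7g values, with an SD of 2.79 log2 units. That spread entered the shared error, and the difference of 2.12 ± 1.18 in DOX-7g against D4-act-7g did not pass (limma, adjusted p = 0.634). In a fit of the 4 DOX-7g and D4-act-7g arrays alone the same change of 2.12 passed (limma, adjusted p = 0.0219). Leaving out either Dor-7g array gives that same fit for this comparison and is no further test. Dor-7g minus D4-act-7g was -1.19 ± 1.18 (limma, adjusted p = 0.675), but 0.78 without Dor-7g replicate 1 and -3.17 without replicate 2, each on 1 Dor-7g array. DOX-7g minus Dor-7g was 3.31 ± 1.18 (limma, adjusted p = 0.388), and 1.34 and 5.29 without Dor-7g replicates 1 and 2. No direction of Ccng1 in Dor-7g can be given from these 2 arrays.

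Trp53inp1, a stress-induced p53 cofactor gene linked to autophagy, was at 5.38 and 4.55 in DOX-7g, 4.36 and 4.17 in Dor-7g, and 4.81 and 4.35 in D4-act-7g. It passed the filter through 1 DOX-7g and 1 D4-act-7g array only. No change passed: 0.39 ± 0.33 in DOX-7g against D4-act-7g (limma, adjusted p = 0.812), -0.31 ± 0.33 in Dor-7g against D4-act-7g (limma, adjusted p = 0.689) and 0.70 ± 0.33 in DOX-7g against Dor-7g (limma, adjusted p = 0.481). The first of these was -0.03 without DOX-7g replicate 1.

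**Figure D2:**
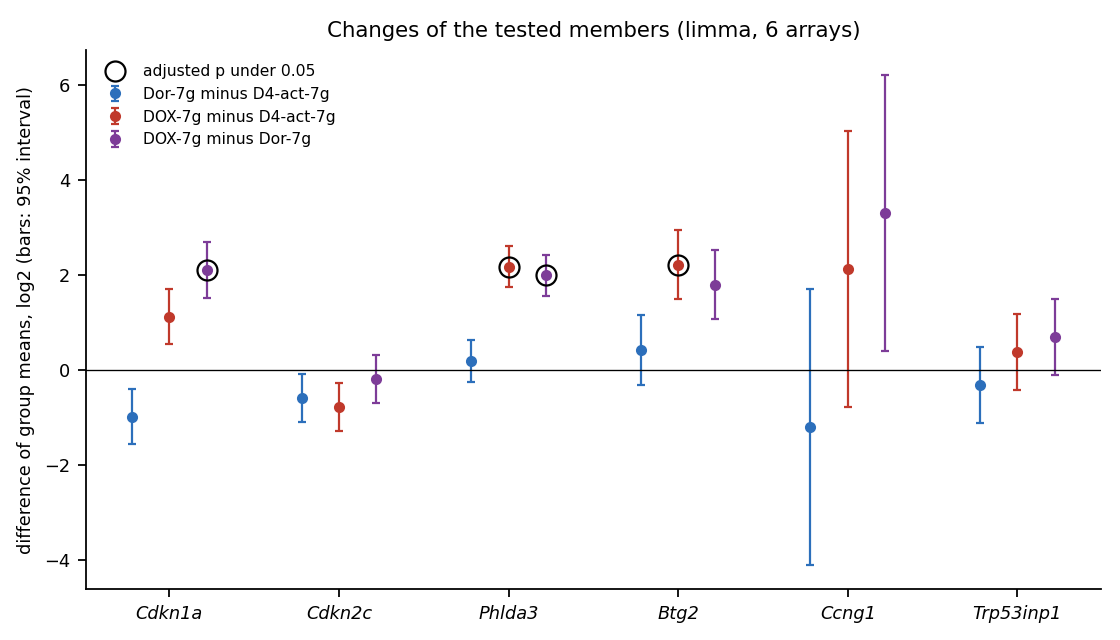
Differences of group means in log2 units (y axis) for the 6 tested members (x axis) in 3 comparisons; points are limma estimates, bars 95% intervals, and black rings mark an adjusted p under 0.05. Phlda3 carries rings for DOX-7g against both other groups, Btg2 for DOX-7g minus D4-act-7g and Cdkn1a for DOX-7g minus Dor-7g, and the intervals of Ccng1 are the widest.

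Counted over the tested members, 2 of 6 were called higher in DOX-7g against D4-act-7g, Phlda3 and the dim Btg2, and 0.706% of all tested genes were called higher there. Between the dormant states 2 of 6, Cdkn1a and Phlda3, were higher in DOX-7g, with 1.04% of all genes called higher. In Dor-7g against D4-act-7g none of the 6 passed limma at the threshold, with 0.984% of all genes called in either direction; Cdkn1a and Cdkn2c had an unadjusted p under 0.05 there (0.00628 and 0.029). The members were chosen with earlier results of these data known, and Btg2 passed the filter through DOX-7g alone, so these counts describe them and support nothing further.

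Separation of arrays without overlap was common in data with 2 arrays a group. In DOX-7g against D4-act-7g, 4 of the 6 members lay above without overlap, with 19.2% of all genes doing so, and 1 below, with 30.5%. In DOX-7g against Dor-7g, 5 lay above, with 15.0% of all genes, and 1 below, with 26.7%. In Dor-7g against D4-act-7g, 1 lay above, with 24.3% of all genes, and 2 below, with 21.5%. The members' median change was 1.62 in DOX-7g against D4-act-7g (all genes -0.05), 1.90 in DOX-7g against Dor-7g (all genes -0.11) and -0.45 in Dor-7g against D4-act-7g (all genes 0.06). Without Dor-7g replicate 1 the last of these was -0.16 (all genes -0.03). By size, Btg2, Phlda3 and Ccng1 ranked 141, 144 and 150 from the highest change among 14020 genes in DOX-7g against D4-act-7g, and Cdkn1a ranked 378.

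**Figure D3:**
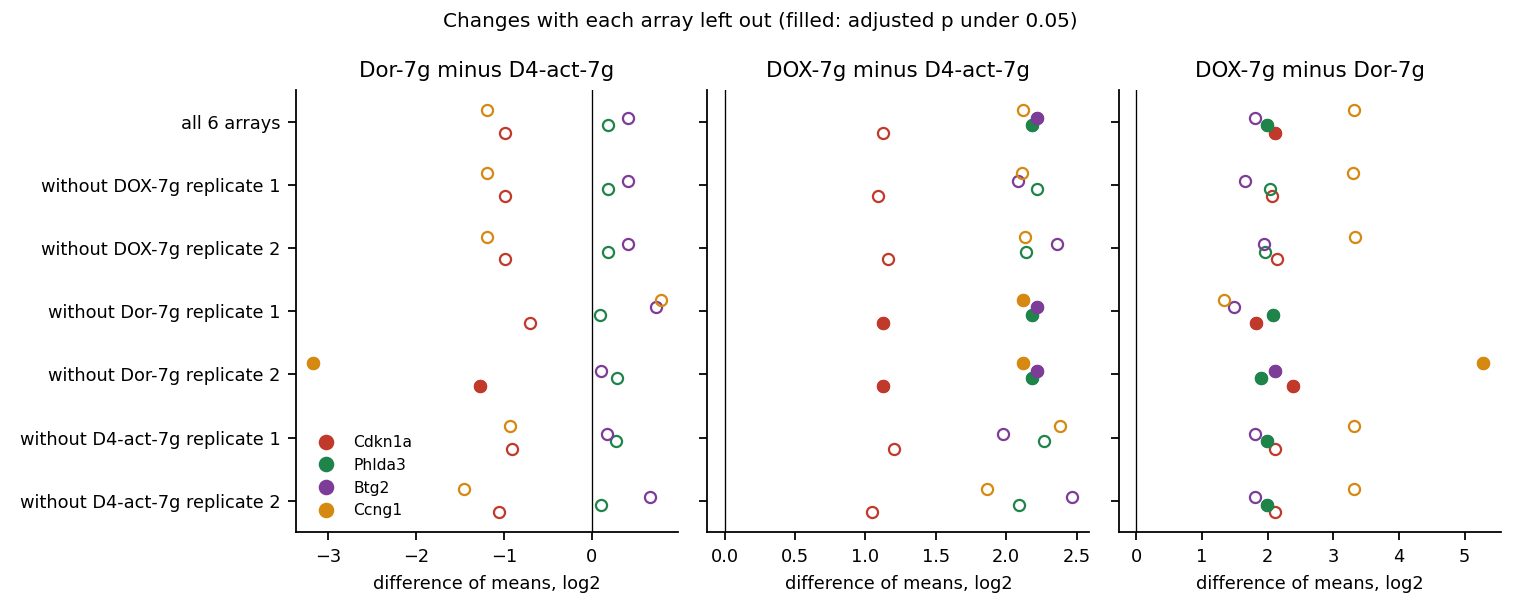
Change of Cdkn1a, Phlda3, Btg2 and Ccng1 in log2 units (x axis) in each comparison, with all 6 arrays and with each array left out in turn (y axis); filled points have an adjusted p under 0.05. In the DOX-7g minus D4-act-7g panel all points lie right of 0, and Ccng1 in Dor-7g minus D4-act-7g stands at 0.78 without Dor-7g replicate 1 and at -3.17 without replicate 2. Leaving out an array leaves 1 array in its group.

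Other established p53 targets gave no call. Of 40 listed, 30 were tested, and in each of the 3 comparisons none passed in either direction (limma). Their median change was 0.02 in DOX-7g against D4-act-7g, -0.07 in DOX-7g against Dor-7g and 0.15 in Dor-7g against D4-act-7g, close to the medians of all genes. The apoptosis genes Bbc3 and Pmaip1, which encode Puma and Noxa, were at -0.14 and -0.28 in DOX-7g against D4-act-7g, and Sesn2, a stress-induced inhibitor of mTOR signalling, at 0.16. The smallest p in that comparison was that of Dcxr, a xylulose reductase gene, at 12.46 and 12.50 in DOX-7g against 10.76 and 11.28 in D4-act-7g (change 1.46 ± 0.24; limma, adjusted p = 0.0769), and this change passed under array weights (0.0261) and with a trended, robust variance (0.0461). Dcxr also had the smallest p in DOX-7g against Dor-7g (0.98 ± 0.24; limma, adjusted p = 0.209), and the tetraspanin gene Cd82 in Dor-7g against D4-act-7g (0.68 ± 0.21; limma, adjusted p = 0.237). Perp, a p53 target of desmosomes, was at 10.23 on both DOX-7g arrays and at 11.32 and 11.54 in D4-act-7g. Its change of -1.20 did not pass with all 6 arrays (limma, adjusted p = 0.172). The same change passed in a fit of the 4 DOX-7g and D4-act-7g arrays alone (limma, adjusted p = 0.0397) and under array weights (0.0283).

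**Figure D4:**
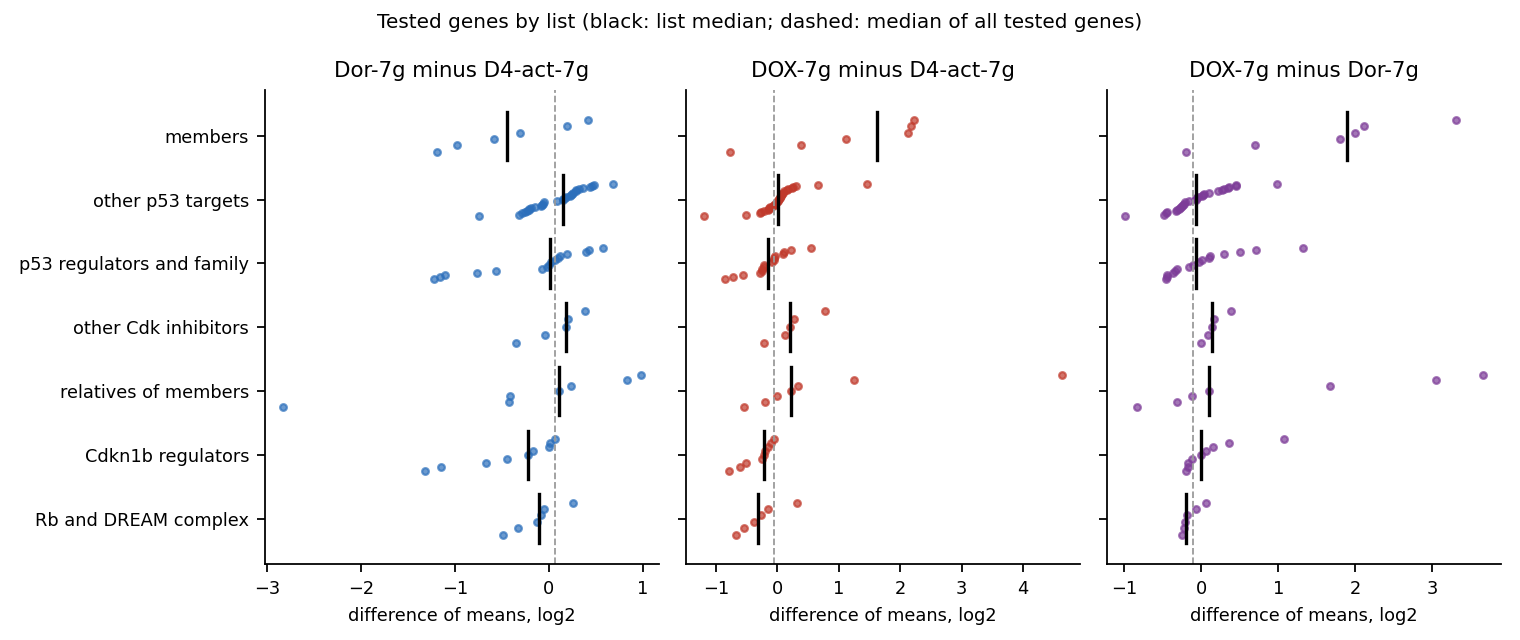
Difference of group means in log2 units (x axis) for each tested gene of 7 gene lists (y axis), 1 panel per comparison; black bars are list medians and the dashed line is the median of all tested genes. The medians of the other p53 targets, 0.15, 0.02 and -0.07 from left to right, lie near the dashed line, and those of the members are -0.45, 1.62 and 1.90. Members and lists were chosen with earlier results of these data known, so these medians describe them only.

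Regulators of p53 showed no gene past the threshold among the 16 tested of 27 listed, in any comparison (limma). The smallest p-values belonged to Sirt1, a deacetylase of p53, in Dor-7g against D4-act-7g (-1.22 ± 0.24; limma, adjusted p = 0.106), to the methyltransferase gene Smyd2 in DOX-7g against D4-act-7g (0.55 ± 0.17; limma, adjusted p = 0.311), and to Rpl5, a ribosomal protein that inhibits Mdm2, in DOX-7g against Dor-7g (0.71 ± 0.23; limma, adjusted p = 0.336). Sirt1 was at 5.03 and 5.15 in DOX-7g, 4.53 and 4.64 in Dor-7g, and 5.51 and 6.10 in D4-act-7g, so both dormant groups lay below day 4. The ubiquitin ligase genes Rchy1 and Cop1 were at -2.56 and -1.80 in Dor-7g against D4-act-7g without Dor-7g replicate 2. That fit rests on replicate 1 alone for Dor-7g, the array that stood apart. Rchy1 stood at 6.55 and 9.45 on Dor-7g replicates 1 and 2.

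The remaining Cdk inhibitor genes, Cdkn1c, Cdkn2a, Cdkn2b, Cdkn2d and Cdkn3, were all tested and none passed in any comparison (limma). The smallest p in each was that of Cdkn1c, an imprinted relative of Cdkn1a, at 7.36 and 7.03 in DOX-7g, 6.73 and 6.88 in Dor-7g, and 6.38 and 6.46 in D4-act-7g. These 3 groups did not overlap, with changes of 0.78 ± 0.19 in DOX-7g (limma, adjusted p = 0.20) and 0.39 ± 0.19 in Dor-7g (limma, adjusted p = 0.428) against D4-act-7g, and of 0.39 ± 0.19 in DOX-7g against Dor-7g (limma, adjusted p = 0.504). The list's median change was 0.20 in DOX-7g and 0.19 in Dor-7g against D4-act-7g, and 0.14 in DOX-7g against Dor-7g.

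Among 7 tested relatives of the members, of 11 listed, none passed with all 6 arrays (limma). Gadd45b, a stress-response relative of Gadd45a, was at 9.51 and 9.98 in DOX-7g, 5.91 and 7.48 in Dor-7g, and 9.52 and 9.54 in D4-act-7g. It was thus low on both Dor-7g arrays, with changes of -2.83 ± 0.51 in Dor-7g against D4-act-7g (limma, adjusted p = 0.0843) and 3.05 ± 0.51 in DOX-7g against Dor-7g (limma, adjusted p = 0.0771). These changes were -2.05 and 2.27 without Dor-7g replicate 1 and -3.62 and 3.83 without replicate 2, each with 1 Dor-7g array left. Phlda2, an imprinted regulator of placental growth and a relative of Phlda3, was at 11.93 and 11.06 in DOX-7g, 6.14 and 9.54 in Dor-7g, and 7.59 and 6.13 in D4-act-7g. Its change of 4.64 ± 1.13 in DOX-7g against D4-act-7g did not pass with all arrays (limma, adjusted p = 0.19). The same change passed in a fit of the 4 DOX-7g and D4-act-7g arrays alone (limma, adjusted p = 0.0373). Against Dor-7g, the change of Phlda2 was 3.66 ± 1.13 with all arrays (limma, adjusted p = 0.318), and 5.36 without Dor-7g replicate 2. Tob2, an antiproliferative gene related to Btg2, stood at 6.19 and 5.27 on Dor-7g replicates 1 and 2. Its change was -0.84 in DOX-7g against Dor-7g and 0.83 in Dor-7g against D4-act-7g. Without Dor-7g replicate 2 these were -1.30 and 1.30. For both genes that fit rests on replicate 1 alone for Dor-7g, the array that stood apart. The median of the relatives was 0.22 in DOX-7g and 0.11 in Dor-7g against D4-act-7g, and 0.10 in DOX-7g against Dor-7g.

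Genes that control the level of p27 did not pass either, with 9 of 10 tested (limma). Skp1, a subunit of the ubiquitin ligase that degrades p27, was at 10.48 and 10.71 in DOX-7g, 9.33 and 9.71 in Dor-7g, and 10.77 and 10.90 in D4-act-7g. Both Dor-7g arrays lay lowest, with a change of -1.32 ± 0.21 against D4-act-7g (limma, adjusted p = 0.0636), and of -1.51 without Dor-7g replicate 2. In DOX-7g against Dor-7g the change of Skp1 was 1.07 ± 0.21 (limma, adjusted p = 0.125), and 1.26 without that array. Both values without it rest on a single Dor-7g array. In DOX-7g against D4-act-7g the smallest p was that of Foxo3, a transcription factor that activates Cdkn1b (-0.79 ± 0.26; limma, adjusted p = 0.351). The list's median change there was -0.22, and that of all tested genes was -0.05.

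Of the Rb and DREAM complex genes, which repress the cell cycle downstream of the Cdk inhibitors, 6 of 11 were tested and none passed in any comparison (limma). Their medians were -0.32 in DOX-7g and -0.11 in Dor-7g against D4-act-7g, and -0.20 in DOX-7g against Dor-7g. Lin37, a subunit of DREAM, had the smallest p against D4-act-7g in both dormant groups (-0.67 ± 0.20 in DOX-7g, limma, adjusted p = 0.30; -0.49 ± 0.20 in Dor-7g, limma, adjusted p = 0.367), and Dyrk1a, the kinase that promotes DREAM assembly, in DOX-7g against Dor-7g (-0.21 ± 0.19; limma, adjusted p = 0.668).

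Genes with profiles most like those of Cdkn1a, Phlda3 and Btg2 were ranked by the root mean square difference of log2 values centred on each gene's mean over the 6 arrays, among 12154 genes. Nearest to Cdkn1a were Dnajb14 (0.260 log2 units), Cd300ld3 (0.261), Avpi1 (0.269), Kiss1r (0.279) and Carhsp1 (0.288). Avpi1 stood at 10.15 and 10.63 in DOX-7g, 7.50 and 8.11 in Dor-7g, and 9.30 and 9.14 in D4-act-7g, the same order of groups as Cdkn1a. Nearest to Phlda3 were Ube2w (0.202), Lrcol1 (0.210), Serpinb9g (0.210), Copz2 (0.274) and Akr1b10 (0.285). Nearest to Btg2 were Plac1 (0.154), Csrnp1 (0.235), Maoa (0.319), Zfp809 (0.322) and Cyba (0.332). Plac1, a trophoblast gene, was at 8.55 and 7.99 in DOX-7g, 5.90 and 6.79 in Dor-7g, and 5.75 and 5.98 in D4-act-7g. With 6 arrays in 3 groups such likeness is a description.

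Markers of blood and immune cells differed between the groups too, though not all in 1 direction. Of 10 listed, 8 had a probeset with 1 symbol, and 6 of the 8 were at or above the array median on each DOX-7g array, against 4 on each Dor-7g array and 2 to 3 in D4-act-7g. Their summed signal, taken back to the linear scale, was 2258 to 3118 in DOX-7g, 395 to 918 in Dor-7g and 389 to 794 in D4-act-7g. Single genes dominated these sums, with S100a8 the largest part in DOX-7g and Cd68 in D4-act-7g. S100a8 stood at 10.91 and 10.12 in DOX-7g, 2.81 and 7.18 in Dor-7g, and 3.28 and 3.16 in D4-act-7g. Its change in DOX-7g against D4-act-7g did not pass (limma, adjusted p = 0.0949). S100a9, a neutrophil gene, was at 9.55 and 9.55 in DOX-7g, 7.10 and 6.41 in Dor-7g, and 4.49 and 4.60 in D4-act-7g, and Ly6g at 7.41 and 7.39 in DOX-7g, 3.75 and 4.25 in Dor-7g, and 3.65 and 4.08 in D4-act-7g. Of 6 tested, these 2 were called higher in DOX-7g than in D4-act-7g (limma, adjusted p = 0.00112 and 0.00434). Both were also called higher in DOX-7g than in Dor-7g (limma, adjusted p = 0.00988 and 0.00422). S100a9 was called higher in Dor-7g than in D4-act-7g too (limma, adjusted p = 0.0274). S100a9 and Ly6g lay under the array median in D4-act-7g, and Ly6g entered the test only through the DOX-7g arrays. The size of differences from such dim levels is uncertain. The macrophage gene Cd68 lay lower in DOX-7g, at 7.41 and 6.87, than in D4-act-7g, at 8.04 and 9.34, without passing (-1.55; limma, adjusted p = 0.594). The neutrophil gene Elane differed by 0.09 (limma, adjusted p = 0.964). The pan-leukocyte gene Ptprc and the myeloid gene Itgam lay below the array median on all 6 arrays. Of 9 uterine stroma markers with such a probeset, 5 were at or above the array median on Dor-7g replicate 1 and 7 on replicate 2. Dcn stood at 9.29 on Dor-7g replicate 2 and at 3.67 to 4.22 on the other 5 arrays. Lum was at 4.10 and 5.01 on Dor-7g replicates 1 and 2, and Des and Hand2 were slightly higher on replicate 2. Col1a1, Col3a1, Hoxa10, Bmp2 and Esr1 were lower on replicate 2 than on replicate 1. The summed signal of the trophectoderm markers was 12590 to 13423 in DOX-7g, 9819 to 12235 in Dor-7g and 9257 to 9365 in D4-act-7g, and most of it came from Krt18 and Krt8. In DOX-7g against D4-act-7g 4 of these 7 markers were above 0, with a median change of 0.11, and none passed (limma). The part of these markers in the values of Cdkn1a, Phlda3 and Btg2 was not tested. In RNA of whole blastocysts, more cells of a type and more RNA per cell cannot be told apart.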

How the data were processed

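The deposited table holds 1 log2 value for each of 41345 probesets on 6 arrays, from 1.52 to 14.18. Per the submitters' processing notes, the authors used Partek 6.6 and RMA, without roles or settings. For the genome build, none is given in the sources used here. Gene names came from GEO's platform annotation, updated through a RefSeq gene table (23521 with 1 symbol, 1814 with several, 16010 unnamed; 193 identifiers unmatched). Filtered genes (at least 2 arrays at or above the array median, brightest probeset) were fitted over all 6 arrays, a mean for each group, in limma 3.58.1 under R 4.3.3 (3 residual and 2.81 prior degrees of freedom). Changes are log2 differences with moderated SE. Benjamini-Hochberg adjustment ran over 14020 genes, with a threshold of 0.05. The fit was run on simulated data with planted changes. There each gene had the same spread in all 3 groups, so that run could not show what the wider spread of Dor-7g does. Intervals are not adjusted for multiple tests.

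The members and gene lists were chosen with earlier results of these data known. Named genes were all members, the smallest p of each list in each comparison or any gene past the threshold, and the 5 nearest profiles to 3 members, leaving out predicted genes, small RNAs, histones and the multicopy Zscan4, Usp17l, Tdpoz, Pramel and Tcstv families. Perp, Bbc3, Pmaip1, Sesn2, Rchy1, Cop1 and Tob2 were named after their values were seen. Alternatives covered normalization, filter, probeset rule, variance model, array weights, a replicate block, arrays in the fit and leaving out each array. The number of arrays limits the precision.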

Additional observations from a re-analysis of the deposited data

Results flagged for a closer look

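For Cdkn1a and Phlda3 the difference between DOX-7g and Dor-7g itself passed the test, though not under every alternative. By the labels these groups differ in culture in vitro and let-7 induction as well as in the kind of dormancy, which cannot be told apart. For Cdkn1a the change from D4-act-7g in DOX-7g exceeded that in Dor-7g by 2.11 log2 units (limma, adjusted p = 0.0177), with both DOX-7g arrays above and both Dor-7g arrays below D4-act-7g. For Phlda3 it exceeded it by 1.99 (limma, adjusted p = 0.00886), with both DOX-7g arrays above all other arrays. The Cdkn1a difference passed under a second quantile normalization, median centring, a trended, robust variance and array weights. It was lost with a replicate block (limma, adjusted p = 0.052) and in the fit of the DOX-7g and Dor-7g arrays alone (limma, adjusted p = 0.071). Leaving out a D4-act-7g array repeats that fit, and filter and probeset rule cannot alter the change of a gene with a single probeset. The alternatives are thus not all separate tests. Neither change of Cdkn1a from D4-act-7g passed by itself (limma, adjusted p = 0.141 in DOX-7g and 0.154 in Dor-7g). The Phlda3 difference passed under the same alternatives, with a replicate block (limma, adjusted p = 0.0312) and in that fit (limma, adjusted p = 0.044). Both differences were lost without either DOX-7g array, which leaves a single array in that group. The changes then stayed at 2.07 to 2.15 for Cdkn1a and 1.95 to 2.03 for Phlda3.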

How the results depend on the processing

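Among 15 alternatives, 6 of which leave out 1 array, members past limma's threshold in DOX-7g against D4-act-7g numbered 1 in place of 2 under a second quantile normalization, median centring, a filter on all 6 arrays (which removes Btg2) and a replicate block, 3 under array weights, and 4 in the fit of those 2 groups. In DOX-7g against Dor-7g they numbered 1 in place of 2 with a replicate block and in the fit of those 2 groups, and 3 with a trended, robust variance. Leaving out single arrays gave 0 to 4 members in both comparisons and 0 to 2 in Dor-7g against D4-act-7g. Over all genes, counts in Dor-7g against D4-act-7g were 138, with 79 under array weights, 82 with a replicate block, 86 in the fit of those 2 groups, and 11 to 1172 without single arrays. In DOX-7g against D4-act-7g they were 134, with 68 under the stricter filter, 461 under array weights, 296 in the fit of those 2 groups, and 43 to 296 without single arrays. In DOX-7g against Dor-7g they were 163, with 81, 104 and 86 under the same 3 alternatives, and 67 to 880 without single arrays. Fits without an array or a group have fewer samples to estimate the spread. Leaving out an array leaves 1 array in its group, so the spread then comes from the other groups alone. For the comparison of those other groups, it is the same fit as that of their arrays alone, and no separate test.

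Of single members, Ccng1 in Dor-7g against D4-act-7g ranged from -3.17 to 0.78 without single arrays, above 0 without Dor-7g replicate 1, and Trp53inp1 in DOX-7g against D4-act-7g from -0.028 to 0.80, below 0 without DOX-7g replicate 1; no other tested member changed direction under the alternatives that gave it a value, 15 each, or 14 for Btg2 and Trp53inp1. Mdm2 and Cdkn1b had 1, no filter, with the same direction. The cause of these changes was not tested. Median centring moved the median of all genes in DOX-7g against Dor-7g to 0.02, against -0.11 as deposited, and in Dor-7g against D4-act-7g to -0.07, against 0.06. Replicate numbers did not pair the samples: deviations of same-numbered arrays correlated at -0.14, -0.01 and -0.02 between groups, and the replicate block gave 82, 90 and 116 genes in the order above, with adjusted p of 0.0752 for Btg2 in DOX-7g against D4-act-7g and 0.052 for Cdkn1a in DOX-7g against Dor-7g, neither then past the threshold.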
